A study of Mus musculus with 2 samples.

Results

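The Iroquois genes Irx1, Irx2, Irx3, Irx4, Irx5 and Irx6 were followed through maps of open chromatin from the embryonic mouse face. They were taken by name from the GENCODE M21 annotation of the mm10 mouse genome, and all 6 were found among 21938 protein-coding genes on chromosomes 1 to 19, X and Y. They form 2 clusters of 3 genes: Irx1, Irx2 and Irx4 on chromosome 13 (cluster A), and Irx3, Irx5 and Irx6 on chromosome 8 (cluster B). Each cluster was described from its first to its last gene with 200 kb added on each side, and the 8 introns of Fto, the neighbour of cluster B, were added. These areas held 578 of the 304233 peaks of replicate 1 and 345 of the 217980 peaks of replicate 2. The tissue was embryonic facial prominence, which gives rise to the face, taken from B6NCrl mouse embryos of 14.5 days with both sexes pooled, untreated and labelled as healthy. DNase-seq, which sequences the ends of fragments that DNase I releases from accessible DNA, was run on 2 biological replicates with separate tissue records under the same donor record. There was no other tissue, genotype or treatment, so values were compared between the replicates, among the genes, and with the rest of the same lists. With 2 replicates of 1 group no test across replicates could reach significance, and values are given for each replicate.

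Iroquois proteins are homeodomain transcription factors of the TALE class, in which the homeodomain carries extra residues in a loop and often works with Meis and Pbx partners. They pattern the neural tube, heart, limb, eye and head skeleton, and the paired clusters of mammals descend from the duplication of a single cluster, so that Irx1 matches Irx3, Irx2 matches Irx5, and Irx4 matches Irx6. Irx3 and Irx5 act together in limb and heart development in the mouse, Irx4 is best known from the ventricles of the heart, and in humans mutations of IRX5 cause Hamamy syndrome, in which the face and skull are malformed. The clusters lie in gene-poor DNA with many conserved elements, and in humans the introns of FTO hold sequence that contacts IRX3 and IRX5 and carries variants associated with obesity.

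Across the whole lists the median score that the authors gave a peak was 50 in replicate 1 and 37 in replicate 2, and replicate 1 had 1.40 times as many peaks. A peak was called shared when it overlapped a peak of the other replicate by at least 1 bp, and shared peaks were merged into 177440 sites. Read depth is not given in the sources used here, and absence from a list does not show that DNA is closed. The tissue label was set beside marker genes: a shared site at the promoter was present for 6 of 6 mesenchyme genes (Twist1, Prrx1, Prrx2, Msx1, Alx1 and Alx4), 5 of 5 epithelial genes, 4 of 4 neuronal genes and 2 of 3 endothelial genes. Such a site was present for 67.5% of all protein-coding genes. With no other tissue measured, these counts cannot tell the face from other tissues that hold the same cell types. A shared promoter site was absent from all 3 hepatocyte genes, all 3 cardiomyocyte genes and all 3 erythroid genes listed. The samples are whole tissue, so fewer cells with an open site and weaker opening in each cell cannot be told apart.

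The following sequences are shown because they hold the promoter peaks of the Irx genes, the top-ranked peak of cluster B and the strongest shared distal peaks of each area, with the Irx4 promoter, a peak of replicate 2 only, for contrast. All are the plus strand of GRCm38 (mm10), written 5′ to 3′, in replicate 1 coordinates except for Irx4, and bases in annotated exons were left out. The peaks at the promoters of Irx5 and Irx6 lay almost wholly in exons and are not printed. Capitals mark matches, on either strand, to any of 15 short binding strings, of which those found here are AGGGGGC (the core of the site of the insulator protein CTCF), TTGGCA (nuclear factor I), GCCNNNGGC (TFAP2), ATCAAAG (LEF and TCF), CAGATG (an E-box, bound by bHLH factors) and TGACAG (Meis). The first lines are promoters of cluster A: chr13:71963736-71963885 lies 13 bp upstream of the Irx1 start, chr13:72628656-72628805 lies 15 bp upstream of the Irx2 start, and chr13:73260436-73260478 ends at the Irx4 start.
Irx1 promoter: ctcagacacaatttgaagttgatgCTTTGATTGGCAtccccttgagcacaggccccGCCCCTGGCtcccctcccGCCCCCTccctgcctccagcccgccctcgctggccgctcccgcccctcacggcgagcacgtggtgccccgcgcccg
Irx2 promoter: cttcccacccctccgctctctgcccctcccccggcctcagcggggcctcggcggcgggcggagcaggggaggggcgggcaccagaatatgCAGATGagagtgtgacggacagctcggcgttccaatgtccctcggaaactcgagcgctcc
Irx4 promoter, replicate 2 only: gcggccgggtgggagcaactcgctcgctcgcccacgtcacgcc

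In cluster B, chr8:91802068-91802145 is the part of the Irx3 promoter peak outside annotated exons, and lies within the span of the antisense transcript Irx3os. The site chr8:92356156-92356305 lies between the starts of Irx5 and of the long noncoding RNA Crnde, and had the highest mean rank of all shared peaks in the cluster B region. Neither sequence held a match to the 15 strings, which says only that those letters were not in these windows.
Irx3 promoter: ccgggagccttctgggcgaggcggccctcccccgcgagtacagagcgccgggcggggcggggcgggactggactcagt
between Crnde and Irx5: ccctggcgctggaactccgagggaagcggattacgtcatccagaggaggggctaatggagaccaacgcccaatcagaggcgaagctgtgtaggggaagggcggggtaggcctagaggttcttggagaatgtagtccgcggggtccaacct

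The strongest shared peaks over 1000 bp from any start were chr13:73160476-73160625 and chr13:72184436-72184585 in cluster A, chr8:92818336-92818485 and chr8:92721676-92721825 in cluster B, and chr8:91378876-91379025 and chr8:91488216-91488365 in introns 1 and 7 of Fto. The cluster A and cluster B peaks were intergenic.
between Irx2 and Irx4: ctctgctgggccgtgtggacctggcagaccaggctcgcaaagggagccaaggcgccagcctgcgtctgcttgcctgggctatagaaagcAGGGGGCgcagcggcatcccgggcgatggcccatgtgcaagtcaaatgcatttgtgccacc
between Irx1 and Irx2: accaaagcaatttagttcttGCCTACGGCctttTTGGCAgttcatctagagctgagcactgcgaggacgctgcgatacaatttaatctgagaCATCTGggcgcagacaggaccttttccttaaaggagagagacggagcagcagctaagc
between Irx6 and Mmp2, near Mmp2: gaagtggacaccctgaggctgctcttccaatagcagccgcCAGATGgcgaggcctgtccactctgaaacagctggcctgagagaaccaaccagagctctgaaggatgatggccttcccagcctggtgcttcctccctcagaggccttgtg
between Irx6 and Mmp2, near Irx6: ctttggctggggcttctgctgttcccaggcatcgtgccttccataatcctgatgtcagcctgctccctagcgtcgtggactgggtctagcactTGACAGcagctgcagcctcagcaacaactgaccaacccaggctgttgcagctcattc
Fto intron 1: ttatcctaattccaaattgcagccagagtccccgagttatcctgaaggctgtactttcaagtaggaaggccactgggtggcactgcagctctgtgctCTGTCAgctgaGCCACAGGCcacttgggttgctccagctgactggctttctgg
Fto intron 7: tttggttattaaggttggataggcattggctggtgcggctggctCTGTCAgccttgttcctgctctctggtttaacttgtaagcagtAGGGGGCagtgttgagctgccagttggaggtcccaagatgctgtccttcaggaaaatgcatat

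The promoters were open in both replicates for 5 of the 6 genes, and Irx4 was the exception. Among all protein-coding genes 67.5% had such a shared promoter site, and the count of 5 of 6 (83.3%) is read as no departure from that background. Within 500 bp of a start, the strongest peak scored 138 in replicate 1 and 121 in replicate 2 at Irx5. At Irx2 it scored 135 in replicate 1 and 119 in replicate 2. Irx3 had a pair of shared promoter peaks, the stronger at 129 in replicate 1 and 116 in replicate 2. These scores stood at percentiles of 97.0 to 99 in their own lists for all 3 genes.

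Irx1 and Irx6 ranked lower. At Irx1 the promoter peak scored 83 in replicate 1 and 73 in replicate 2, at percentiles of 85.6 and 86.9. At Irx6 it scored 62 in replicate 1 and 47 in replicate 2, and a stronger shared peak, at 85 and 71, lay 523 and 503 bp upstream, just outside the promoter window. Irx4 had no promoter peak in replicate 1 and a single peak of 41 in replicate 2, inside a hotspot of 96 bp whose −log10 q of 1.55 was near the lowest value listed, 1.3. The hotspots over the starts of Irx2, Irx3 and Irx5 were at the ceiling of 100 in both replicates, while the one over the Irx1 start was at 100 in replicate 1 and 4.59 in replicate 2. The order of the genes by promoter score was therefore Irx5, Irx2, Irx3, Irx1, Irx6 and Irx4 in both replicates.

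In each pair of matching genes the partners were neighbours in that order, with the cluster B gene the higher. This depends on the promoter window of 500 bp. The shared Irx6 peak just outside it, at 85 and 71, scored above the Irx1 promoter in replicate 1 and below it in replicate 2. With that peak counted, the partners would not be neighbours in replicate 1. Irx5 and Irx2 scored close to each other, Irx3 scored 129 and 116 where Irx1 scored 83 and 73, and Irx6 had a shared promoter site where Irx4 had none. The promoters of all 6 genes were rich in G and C, which made up 60.7% (Irx3) to 73.6% (Irx2) of the bases within 500 bp of the start, against a median of 54.8% over 21922 promoters. The ratio of observed to expected CpG was 0.617 (Irx6) to 0.917 (Irx2), against a median of 0.552, and at Irx4 it was 0.810. All 6 ratios were above the median, but only those of Irx1, Irx2 and Irx4 were above the upper quartile of 0.768. The Irx4 promoter was thus among the more CpG-rich of the 6, although it had a listed peak in 1 replicate only.

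Open chromatin spread beyond the promoter around Irx1, Irx3 and Irx5, and around Irx2 mainly in replicate 1. It was wider in replicate 1 at all 4 genes. Over the gene with 5 kb on each side, hotspots covered 34.8% of the bases at Irx1 in replicate 1 and 14.8% in replicate 2. They covered 30.8% and 14.3% at Irx3, 27.5% and 8.65% at Irx5, and 25.8% and 7.37% at Irx2, in the same order of replicates. The medians over all protein-coding genes were 5.09% and 3.96%. These 4 genes were above the median in both replicates, and in replicate 1 the share of genes with more coverage was 0.401% for Irx1, 0.752% for Irx3, 1.12% for Irx5 and 1.40% for Irx2. In replicate 2 the same shares were 5.97%, 6.59%, 18.4% and 24.1%. Irx6, with 6.53% and 6.08%, lay near the medians. Irx4 was near the median in replicate 2, at 4.38%. In replicate 1 Irx4 was below it, at 2.60%, and 72.4% of genes had more coverage. Coverage of a gene with its margins depends on gene length. In a fixed window of 5 kb on each side of the start, the medians were 10.3% and 9.34%. In replicate 2 Irx1, Irx3 and Irx5 were at 17.5%, 19.3% and 18.9% there, above the upper quartile of 15.7%. Irx2 was at 38.0% in replicate 1 but 11.3% in replicate 2, below that quartile. Irx4 was at 0.870% and 2.64%, and its 1 shared body peak, at 82 and 62, lay near the 3′ end.

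**Figure D1:**
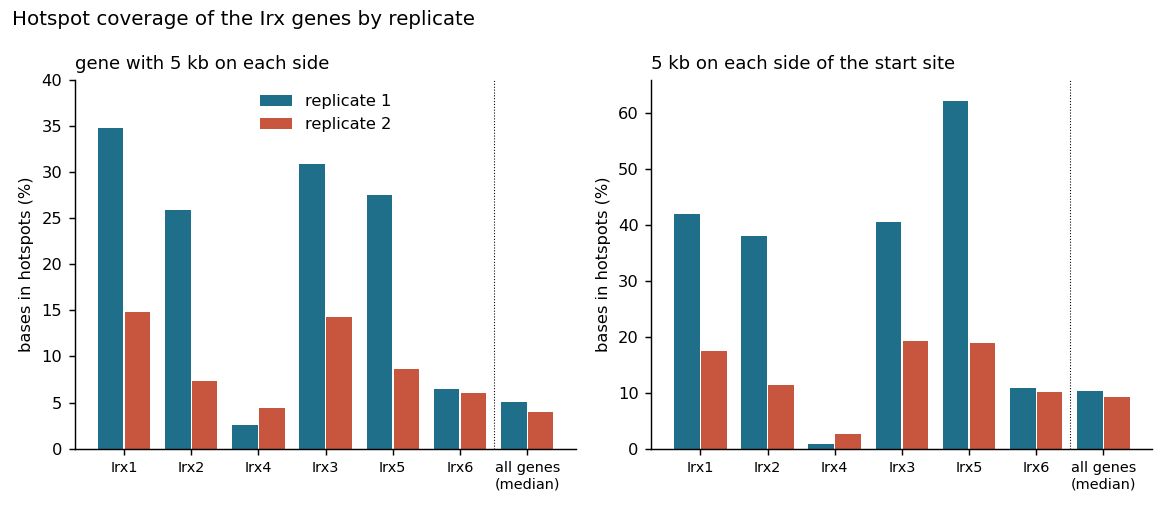
Bars give the percentage of bases inside hotspots for each Irx gene in replicate 1 and replicate 2, with the median of all 21938 protein-coding genes at the right; the left panel covers the gene with 5 kb on each side and the right panel 5 kb on each side of the start site. Irx1, Irx2, Irx3 and Irx5 stand above the median in both replicates and higher in replicate 1, while Irx6 is near the median and Irx4 is below it around the start.

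The body of Irx1 was open along its length. Its 5803 bases held 12 peaks in replicate 1, of which 5 were shared, and 9 in replicate 2, of which 6 were shared, and hotspots covered 67.8% and 28.4% of it. The strongest shared peak inside the gene away from the start scored 79 in replicate 1 and 58 in replicate 2, and another at 85 and 57 lay beyond the 3′ end, at the start of the noncoding transcript Gm40999. Irx2 showed a different layout: its body held 6 peaks in replicate 1 with scores of 40 to 65 and none in replicate 2, and the 4 shared peaks of the gene with its 5 kb margins all lay at or upstream of the start. At Irx3 the margins and gene held 15 peaks in replicate 1 and 6 in replicate 2, with 4 shared in each.

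The widest hotspot of the cluster B region joined Crnde and Irx5. In replicate 1 it ran over 3247 bp (chr8:92355517-92358763) across both starts, which lie 1794 bp apart on opposite strands, and held 5 peaks. For scale, 99% of the hotspots of replicate 1 were no wider than 1456 bp. In replicate 2 the same stretch was split into a hotspot of 997 bp at Crnde and one of 632 bp at Irx5. The Crnde side held the strongest shared peak of the region, with scores of 145 and 121, and beside it a peak of 117 that was listed in replicate 2 only and was the highest-scoring peak of replicate 2 in any of these areas without a partner. That peak lay in a hotspot that both replicates shared, so a peak counted as unshared is not always outside shared open chromatin.

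**Figure D2:**
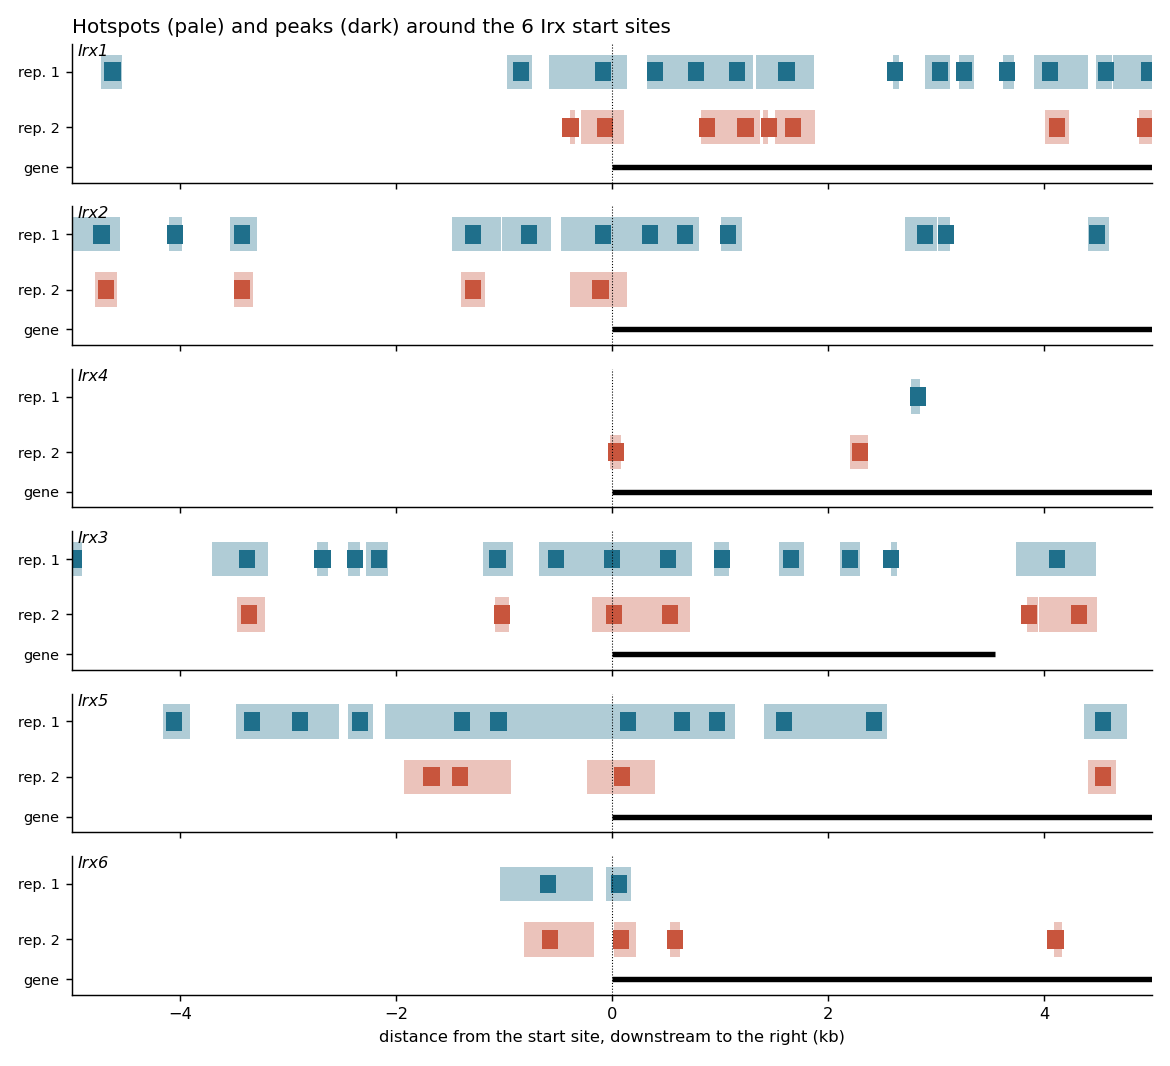
Each panel shows 5 kb on either side of the start site of an Irx gene, with hotspots as pale boxes and 150 bp peaks as dark boxes for replicate 1 (upper) and replicate 2 (lower), and the gene as a black line; the horizontal axis is the distance in kb with downstream to the right. The stretch of hotspot over Irx5 is 3247 bp wide in replicate 1 and split in replicate 2, and Irx4 has 1 listed peak at its start, in replicate 2 only.

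Several promoter sites cannot be given to a single gene. The starts of Irx2 and of the noncoding RNA Gm20554 lie 256 bp apart, with the shared peak between them, and those of Irx3 and its antisense transcript Irx3os lie 108 bp apart. Of the 20 annotated genes of the cluster A region, 8 had a shared promoter site, 1 had a peak in replicate 1 only, 1 in replicate 2 only and 10 had none. Of the 29 of the cluster B region, 13 had a shared promoter site, 3 had a peak in replicate 1 only and 13 had none. The protein-coding neighbours all had shared promoter sites: Ndufs6 (a subunit of respiratory complex I) and Mrpl36 (a mitochondrial ribosomal protein) with a joint peak of 131 and 111, and Lpcat1 (a phospholipid acyltransferase) with 128 and 119. In cluster B these were Mmp2 (a matrix metalloproteinase) with 103 and 79, Lpcat2 with 102 and 100, and Fto (an RNA demethylase) with 146 and 142. Genes without a listed promoter peak were pseudogenes, noncoding RNAs and unclassified transcripts.

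The clusters differed in how many sites lay between the genes. The cluster B region (chr8:91598525-92880956) held 153 shared sites in 1.28 Mb, or 11.9 per 100 kb, which was 1.83 times the density of the main chromosomes, 6.51 per 100 kb. The cluster A region (chr13:71757921-73469608) held 98 sites in 1.71 Mb, or 5.73 per 100 kb, 0.879 times that density. Cluster B stood above the genome in each replicate alone, at 1.96 times in replicate 1 and 1.74 times in replicate 2. Cluster A did not hold its side: it was at 1.18 times with replicate 1 alone and at 0.942 times with replicate 2 alone. Hotspots covered 6.49% and 3.55% of the cluster B region and 3.58% and 1.70% of the cluster A region, against 3.18% and 2.19% of the genome.

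**Figure D3:**
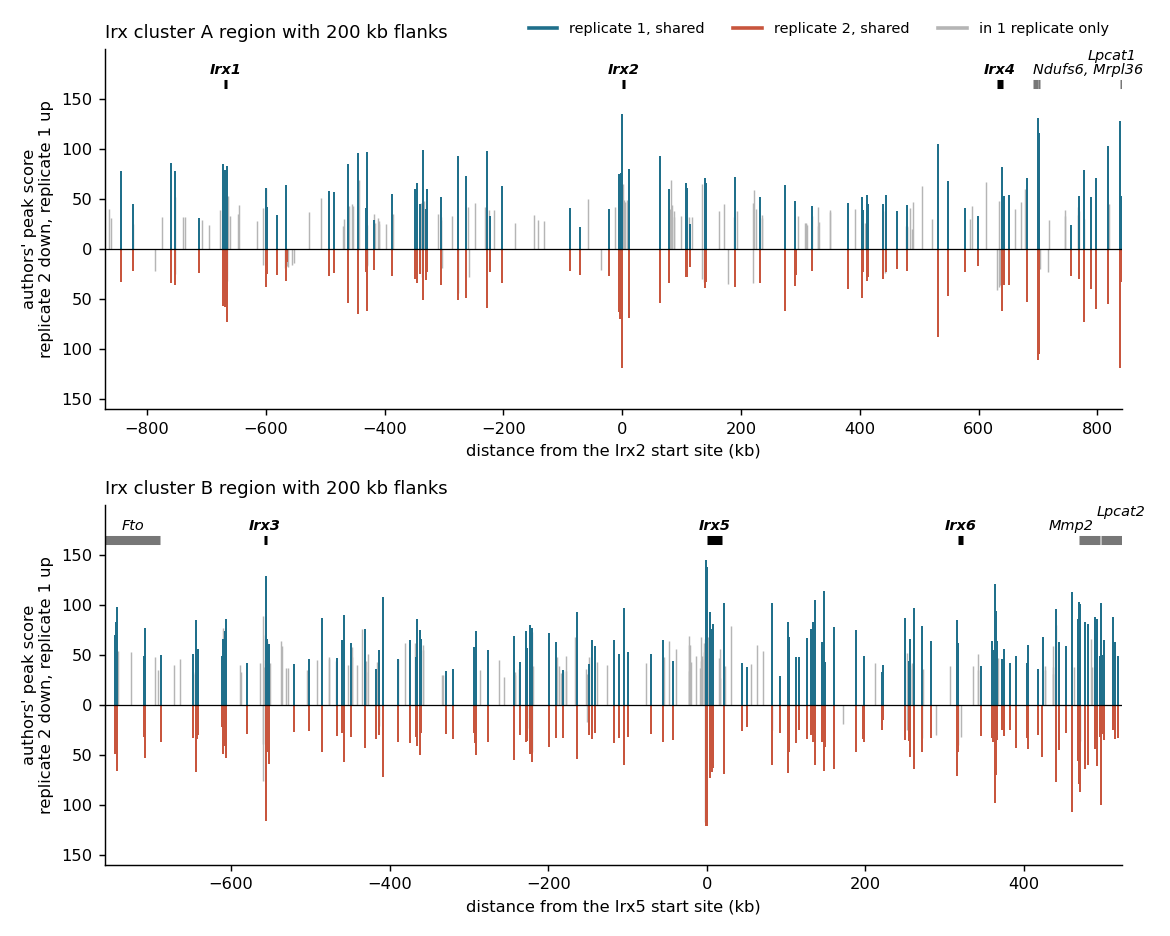
Vertical lines give the authors' score of every peak in the cluster A region (top) and the cluster B region (bottom) against the distance in kb from the Irx2 or Irx5 start, with replicate 1 drawn upwards and replicate 2 downwards; peaks present in both replicates are coloured and the rest are grey, and bars mark protein-coding genes. Cluster A has 98 shared sites in its 1.71 Mb and cluster B 153 in its 1.28 Mb, and the tallest lines stand at promoters.

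Within each cluster the intervals between the genes had similar densities. In cluster A it was 5.26 sites per 100 kb over the 665.1 kb between Irx1 and Irx2, 5.11 over the 626.3 kb between Irx2 and Irx4, 5 in the flank beyond Irx1, and 7.50 in the flank beyond Irx4 that holds Ndufs6, Mrpl36 and Lpcat1. In cluster B it was 10.4 over the 555.6 kb between Irx3 and Irx5, 11.1 over the 298.0 kb between Irx5 and Irx6, 10 in the flank beyond Irx3 and 18.5 in the flank beyond Irx6, which holds Mmp2 and part of Lpcat2. All 4 intervals of cluster B exceeded all 4 of cluster A. Counted in windows of 100 kb, cluster B had 6 to 16 sites in each of 12 windows with a median of 10.5, and cluster A had 1 to 9 in each of 17 windows with a median of 6. The longest stretch without a shared site was 41.0 kb in cluster B, over the body of Crnde, and 114.1 kb in cluster A, between Irx1 and Irx2. The stretch over Crnde held 15 peaks of replicate 1 and 1 of replicate 2, and the one in cluster A held 4 and 0.

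Other homeobox clusters were measured in the same way. With 200 kb flanks the density was 6.93 sites per 100 kb at Dlx5 and Dlx6, 11.5 at Dlx1 and Dlx2 and 18.3 at Dlx3 and Dlx4, and 8.25 (HoxD), 9.90 (HoxA), 10.5 (HoxB) and 13.4 (HoxC) at the Hox clusters. Cluster B lay inside this range and cluster A below all of them.

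**Figure D4:**
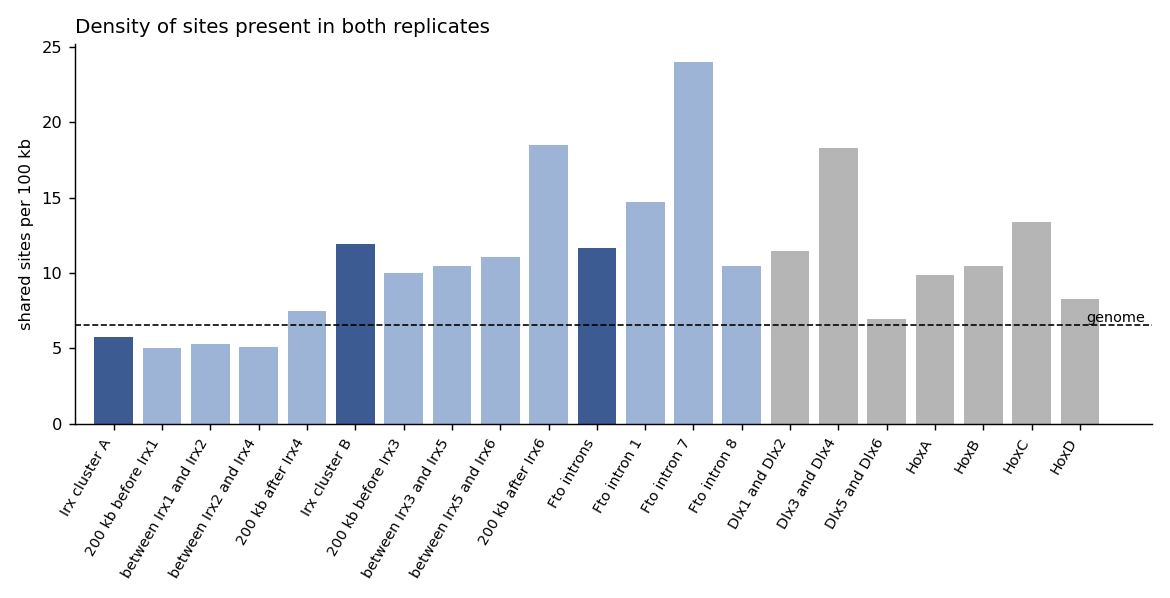
Bars give shared sites per 100 kb for the cluster A region and its 4 intervals, the cluster B region and its 4 intervals, the Fto introns (dark blue for the whole areas, pale blue for their parts), and for the Dlx pairs and Hox clusters with 200 kb flanks (grey); the dashed line is the density of the main chromosomes, 6.51. The cluster B bars all stand above the line, and in cluster A only the flank beyond Irx4 does.

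Most sites lay away from promoters, as they did in the genome as a whole. Of the shared sites, 87 of 98 in cluster A (88.8%) and 133 of 153 in cluster B (86.9%) were over 1000 bp from every annotated start, against 79.1% of all shared sites, and 74 and 103 were intergenic. When each such distal site of the genome was assigned by the nearest protein-coding start, Irx1 had 52, Irx5 47, Irx3 46, Irx2 28, Irx6 25 and Irx4 20, against a median of 2 over all protein-coding genes. The stretch of DNA nearest to each gene was also long, from 235.0 kb at Irx6 to 893.5 kb at Irx1, against a median of 47.0 kb. Per 100 kb of that stretch the counts were 10.8 at Irx5, 10.6 at Irx6 and 8.81 at Irx3, and 5.82 at Irx1, 5.72 at Irx4 and 4.32 at Irx2, beside a median of 4.80. Irx4 and Irx6 thus had as many distal sites for their surroundings as their neighbours had, although their promoters scored lowest within 500 bp of the start. Which gene a site acts on cannot be read from its distance.

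The 6 strongest shared peaks of cluster A included the promoters of Irx2, Lpcat1, Mrpl36 and Ndufs6 and only then distal sites. The site between Irx2 and Irx4 scored 105 in replicate 1 and 88 in replicate 2 and lay 99.9 kb before the Irx4 start. Its printed sequence carries the CTCF core, as does that of the Irx1 promoter. The next, between Irx1 and Irx2, scored 96 and 65 and lay 220.7 kb from Irx1. In cluster B the distal peak of highest mean rank scored 113 and 107 and lay 8.81 kb before the start of Mmp2, and the next scored 121 and 98 and lay 46.9 kb from Irx6. The strongest peaks listed in a single replicate were weaker in cluster A, at 69, 69 and 67 in replicate 1 and 44, 41 and 38 in replicate 2. In cluster B they were 92, 89 and 80 in replicate 1 and 117, 76 and 47 in replicate 2, and the first 2 of each replicate lay beside Crnde or Irx3.

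The Fto introns resembled cluster B. Together they measured 351.4 kb and held 81 peaks in replicate 1, 43 in replicate 2 and 41 shared sites, or 11.7 per 100 kb, 1.79 times the genome. Most sites lay in the 3 longest introns: 13 in intron 1 (14.7 per 100 kb), 9 in intron 7 (24.0 per 100 kb) and 15 in intron 8 (10.5 per 100 kb). Introns 2, 3, 4 and 6 had 1 each and intron 5 had none. Intron 8 measured 143.4 kb, and its density was below that of the introns together. The 283.6 kb of introns outside the cluster B flank had 12.7 per 100 kb and the 67.8 kb inside it 7.38. Of the 35 distal sites, 24 were nearest to the start of Fto and 11 were nearest to the start of Irx3.

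The strongest intronic peak, in intron 1, scored 108 in replicate 1 and 97 in replicate 2 and lay 65.3 kb from the Fto start. It was followed by one at 96 and 69 in intron 1, within 500 bp of the start of the transcript Gm45427, and by one at 85 and 79 in intron 7, whose printed sequence has both a Meis string and the CTCF core. Those in intron 8 scored 98 and 66, and 101 and 61, and lay 188.0 and 235.8 kb from the Irx3 start. Peaks of replicate 1 without a partner reached 72, 71 and 70, and the only 2 such peaks of replicate 2 scored 33 and 31.

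The share of peaks found in both replicates separated the clusters as well. In cluster A 44.2% of the peaks of replicate 1 were shared, in cluster B 56.1% and in the Fto introns 50.6%, against 59.2% of the whole list. For replicate 2 these shares were 76.7%, 91.0% and 95.3%, against 83.6% of the whole list. Replicate 1 therefore had more unmatched peaks in all 3 areas than its list as a whole, while replicate 2 had fewer in cluster B and the Fto introns and more in cluster A. Scores went with this: the median score in cluster A was 43 in replicate 1 and 33 in replicate 2, below the list medians of 50 and 37, and in cluster B it was 53 and 37. Shared peaks of cluster A had medians of 54.5 and 34, against 62 and 40 for shared peaks of the whole lists.

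Replicate 1 had 1.75 peaks for each peak of replicate 2 in cluster A, 1.57 in cluster B and 1.88 in the Fto introns, against 1.40 in the whole lists. In cluster B the excess was largest close to the genes, and it also extended through the interval between Irx3 and Irx5. Within 25 kb of Irx3, Irx5 and Irx6 together there were 55 peaks in replicate 1 and 20 in replicate 2, a ratio of 2.75. Elsewhere there were 225 and 158, a ratio of 1.42, which pools unlike intervals. The whole interval between Irx3 and Irx5 had 131 and 66 peaks, a ratio of 1.98. That between Irx5 and Irx6 had 47 and 40, a ratio of 1.18. Away from both genes, the window chr8:91898525-91998524 had 13 unshared peaks in replicate 1 and 1 in replicate 2. With 5 kb on each side of the gene, the peaks were 15 and 6 at Irx3, 19 and 8 at Irx5, and 2 and 4 at Irx6. In cluster A the ratio was 1.80 within 25 kb of the genes and 1.74 elsewhere. With a margin of 5 kb it was 2.00 near the genes and 1.53 elsewhere in cluster B. In cluster A it was 1.67 near the genes and 1.77 elsewhere, so the pooled counts of cluster A showed no concentration at the genes. The genes of cluster A differed from each other. With a margin of 5 kb Irx1 had 19 peaks in replicate 1 and 12 in replicate 2, and Irx2 had 13 and 4. Irx4 went the other way, with 3 and 5. With both lists brought to 1 length by keeping the strongest peaks of replicate 1, the ratios were 1.09 in cluster A, 1.28 in cluster B and 1.74 in the Fto introns.

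By gene, the difference within 25 kb of the start was largest at Irx5. Within 25 kb of the start, hotspots covered 10409 bp in replicate 1 and 2479 bp in replicate 2 at Irx5, which is 2.89 times after division by the ratio of the whole lists, 1.45. The same measure was 1.86 at Irx2 (5044 and 1872 bp), 1.81 at Irx1 (6118 and 2335 bp) and 1.59 at Irx3 (4850 and 2099 bp). It was 0.922 at Irx6 (1356 and 1014 bp) and 0.625 at Irx4 (889 and 981 bp). Over the 19480 protein-coding genes with hotspots in replicate 2 the median of this measure was 0.822, the quartiles were 0.698 and 1.02, the 95th percentile was 1.62, and 73.7% of genes were below 1. Irx5, Irx2 and Irx1 thus lay above the 95th percentile, Irx3 just under it, Irx6 above the median and Irx4 below the lower quartile. Irx5 was the only member of 6 past 2-fold toward replicate 1, where 5.65% of 20100 genes were, and none of the 6 was past 2-fold toward replicate 2, where 3.55% were. The window at Irx5 also takes in the start and most of the body of Crnde, so its value is not of Irx5 alone. The stretch over Crnde without a shared site, partly in that window, held 15 peaks of replicate 1 and 1 of replicate 2. Over the gene with 5 kb margins, the undivided hotspot ratio was larger at Irx2, 3.50, than at Irx5, 3.18.

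Other homeobox genes, read against the same median of 0.822, differed by family. All 6 Dlx genes were above it, and Dlx1 and Dlx2 were past 2-fold toward replicate 1, at 3.70 and 3.58. The 39 Hox genes had a median of 0.829, that of a typical gene. The 12 other TALE genes, all of which had a shared promoter site, had a median of 0.714, and among them Meis1 and Meis2, whose proteins can pair with homeodomain factors on DNA, were past 2-fold toward replicate 2 at 0.332 and 0.317. For the markers of cell types the medians were 0.636 for mesenchyme (6 genes, 0.214 to 0.877), 0.959 for epithelium (5 genes, 0.784 to 1.19), 0.884 for neurons (4 genes, 0.536 to 2.33, with Isl1 highest) and 0.837 for endothelium (3 genes, 0.767 to 1.32). Many of these values lay between the quartiles of all genes. Instruments are listed for replicate 1 only. The part that cell mixture, dissection or sequencing had in the difference at the Irx genes was not tested.

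**Figure D5:**
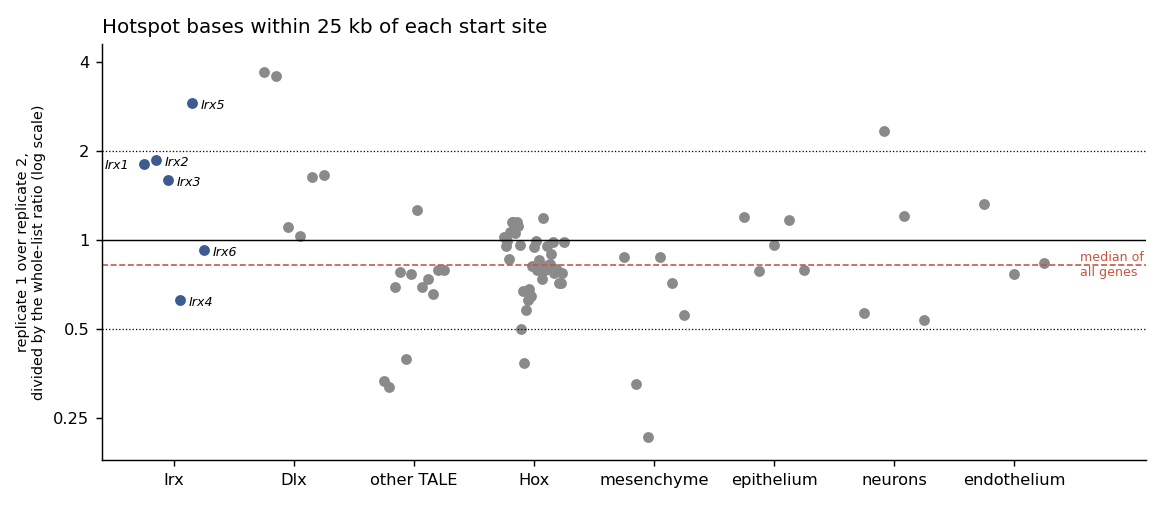
Each point is a gene, and the vertical axis (log scale) is the hotspot bases within 25 kb of its start in replicate 1 over those in replicate 2, divided by the ratio of the whole lists; columns hold the Irx, Dlx, other TALE and Hox genes and 4 lists of cell type markers, dotted lines mark 2-fold and the dashed line is the median of all genes, 0.822. Irx5 stands at 2.89 and Irx1, Irx2 and Irx3 between 1.59 and 1.86, while Irx6 at 0.922 is near the median line and Irx4 at 0.625 is below it.

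The distal sites were close to distal sites elsewhere in G and C content and higher in CpG. In windows of 150 bp at the centre of each site, the median G and C content was 50.7% in cluster A, 50% in cluster B and 50% in the Fto introns, against 48.7% over 140270 distal shared sites. The median ratio of observed to expected CpG was 0.333, 0.304 and 0.353, against 0.236. The string ACANNTGT, a palindrome that Iroquois proteins are known to bind, was found in 11 of 87 windows in cluster A (12.6%), 9 of 133 in cluster B (6.77%) and 5 of 35 in the Fto introns (14.3%), against 7.62% of all distal shared sites. The Meis string TGACAG was in 16.1%, 11.3% and 20%, against 13.4%, and the Pbx string TGATNNAT in 5.75%, 9.02% and 5.71%, against 5.16%.

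Some strings were spread unevenly between the clusters. The CTCF core AGGGGGC was in 8 of 87 windows in cluster A (9.20%) and 2 of 133 in cluster B (1.5%), against 4.72% of all. The AP-1 string TGANTCA went the other way, with 2 windows in cluster A (2.30%) and 14 in cluster B (10.5%), against 6.58%, as did the GATA string AGATAA with 4 (4.6%) and 14 (10.5%), against 5.52%. In the Fto introns the RUNX string TGTGGTT was in 5 of 35 windows (14.3%), against 5.49%, and the homeodomain string TAATTA in none of the 35, against 4.18%. The nuclear factor I string TTGGCA was in 17.2%, 18.0% and 14.3%, against 17.9%, the E-box CAGATG in 23.0%, 19.5% and 14.3%, against 18.7%, and the TFAP2 string GCCNNNGGC in 5.75%, 7.52% and 5.71%, against 5.65%. Both strands were read, strings could overlap each other, 5 distal sites lay in both cluster B and the Fto introns, and the counts are small, so these shares are descriptions of sequence and not of binding.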

How the data were processed

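DNase-seq was run on 2 biological replicates of embryonic facial prominence. For each, the authors deposited peaks of 150 bp with a score, a whole number from 1 to 150 whose normalization is not given in the sources used here, and hotspots with a −log10 q-value from 1.3 to a ceiling of 100. Both lists were made per replicate, per the deposited descriptions. Aligner, caller, false discovery setting and read depth were not given in the sources used here, so no interval for counting error could be had, and scores serve only to rank peaks within a list.

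Regions off chromosomes 1 to 19, X and Y (233 and 213 peaks, 196 and 174 hotspots) and repeated peak coordinates (23 and 28) were left out. Peaks sharing at least 1 bp between replicates were called shared and merged into sites. Promoters were windows of 500 bp on each side of basic GENCODE M21 transcript starts, and a site over 1000 bp from all starts was distal. Hotspot coverage is the percentage of bases inside hotspots. Sequences came from GRCm38, whose coordinates are those of mm10, and positions are 1-based. The introns are those of the longest coding transcript, Fto-201. Overlap counting was tested on simulated regions with planted overlaps. Python 3.11.15, pandas 2.3.3 and numpy 2.4.6 were used, with no p-values, since there was 1 group.

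All members, all annotated neighbours, the 5 shared peaks of highest mean rank in each area and the 3 strongest unshared peaks of each replicate were to be named, with the strongest distal peaks added for sequence. The members, gene lists and strings were chosen with earlier results of these data known. Alternatives were a stricter score, equal list lengths, an overlap of 75 bp, hotspots in place of peaks, other flanks, a promoter window of 1000 bp, and each replicate alone.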

Additional observations from a re-analysis of the deposited data

How the results depend on the processing

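Of 46 values recomputed under alternatives, 39 stayed close to the reported value (densities within 1 SD between replicates, peak ratios within their exact binomial interval, counts of genes within 1.5 times), 6 moved further and 1 changed its side of the genome-wide value. That SD was taken from the densities of each replicate alone, so closeness under those settings carries little weight. A count of 5 among 6 genes also cannot rise past 1.5 times. The 39 is therefore no measure of robustness. With each replicate alone, 5 to 6 members had a promoter peak (Irx4 only in replicate 2), and site density over the genome was 0.942 to 1.18 in cluster A, 1.74 to 1.96 in cluster B and 1.53 to 2.07 in the Fto introns. The cluster A value, 0.879 for shared sites, passed 1 only at 1.18, with replicate 2 left out, and that position below the genome is therefore not stable. With scores at or above the list median the densities over the genome were 0.592 in cluster A, 1.65 in cluster B and 2.48 in the Fto introns, and with no flank cluster B was at 1.67. With lists of equal length replicate 1 had 1.09 peaks per peak of replicate 2 in cluster A and 1.28 in cluster B, where the whole lists have a ratio of 1 by construction. The cause of the other changes was not tested. No paired analysis was possible because there was 1 group. The unknown depth limits what the absence of a region from a list can mean.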
